A study of Mus musculus with 13 samples.

Results

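The sarcomeric myosin heavy chains Myh6, Myh7 and Myh7b and the myosin-binding proteins Mybpc3 and Mybphl were followed through heart development in the mouse, as 5 of 27998 genes counted in single cells. They were taken by gene symbol, and all 5 were listed in every matrix. The series was collected to study how the conduction system forms. Wild-type C57Bl/6J mice were collected at 6 stages, as whole embryos without head and limbs at E8.5 and E10.5 and as hearts at P3 and at E12.5, E14.5 and E16.5, with no treatment. The labels list 13 samples, of which 10 count matrices were analysed here: 1 at E8.5, 2 at each of E10.5, E12.5, E14.5 and E16.5, and 1 at P3. The first E16.5 matrix was made from 2 of the listed samples, and the P3 matrix from both P3 samples. The first E8.5 sample was not analysed here. The series describes 2 biological replicates a stage, but the number of embryos or animals behind a library is not stated. All p-values therefore measure the spread between these libraries.

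Myosin heavy chains are the motor subunits of the thick filament. In rodents, the fast α chain is encoded by Myh6 and the slow β chain by Myh7, and the ventricle exchanges β for α around birth. Myh7b encodes a related slow chain, Mybpc3 the cardiac myosin-binding protein C that sits along the thick filament and tunes cross-bridge cycling, and Mybphl a small myosin-binding protein H-like protein known from atrial and conduction system cardiomyocytes.

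In the mm10 genome (GRCm38, GENCODE M21 models), Myh6 lies at chr14:54941921-54966927 and Myh7 at chr14:54970684-54994626, both on the minus strand, with 39 and 41 exons and a gap of 3756 bases between them. Mhrt, a noncoding RNA on the plus strand at chr14:54968678-54974349, fills part of that gap and overlaps the 3′ end of Myh7 by 3666 bases. Myh7b lies at chr2:155611212-155634307 on the plus strand with 42 exons, Mybpc3 at chr2:91118144-91136516 on the plus strand with 35 exons, and Mybphl at chr3:108364911-108380057 on the plus strand with 9 exons. The 3 heavy chain genes each carry a microRNA in an intron on their own strand, and these so-called myomiRs are shown because they lie within the genes whose levels are described here. Their mature sequences (RefSeq, GRCm38.p6) follow, with the seed, bases 2 to 8, in capitals.
mmu-miR-208a-3p: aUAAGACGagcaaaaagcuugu
mmu-miR-208b-3p: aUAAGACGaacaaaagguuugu
mmu-miR-499-5p: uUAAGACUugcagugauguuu
The first lies in intron 29 of Myh6 (chr14:54949072-54949093), the second in intron 31 of Myh7 (chr14:54975710-54975731) and the third in intron 19 of Myh7b (chr2:155622893-155622913). The microRNAs from Myh6 and Myh7 share the seed UAAGACG and 19 of 22 bases, while that from Myh7b differs in the last base of the seed. None of the 3 was among the counted features, so their levels were not measured.

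The 250 bases before the RefSeq start sites of the 3 members that separated most clearly between the classes are shown on the coding strand (GRCm38.p6), with matches to 4 short motifs in capitals. Both strands were searched. The M-CAT element was taken as CATTCC and the GATA site as AGATAA. A nuclear receptor half-site was taken as AGGTNA. A T-box half-site was taken as GGTGTNA.
Myh6, chr14:54966608-54966857, minus strand: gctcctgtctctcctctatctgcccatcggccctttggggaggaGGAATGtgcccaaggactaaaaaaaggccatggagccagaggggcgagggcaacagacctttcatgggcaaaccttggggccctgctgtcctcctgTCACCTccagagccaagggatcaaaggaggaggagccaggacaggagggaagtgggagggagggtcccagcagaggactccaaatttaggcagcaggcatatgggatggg
Myh7, chr14:54994627-54994876, minus strand: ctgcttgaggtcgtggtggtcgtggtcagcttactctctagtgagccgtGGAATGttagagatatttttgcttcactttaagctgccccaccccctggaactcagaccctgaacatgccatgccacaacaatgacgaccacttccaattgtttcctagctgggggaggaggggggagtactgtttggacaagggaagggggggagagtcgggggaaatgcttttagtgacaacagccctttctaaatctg
Mybphl, chr3:108364661-108364910, plus strand: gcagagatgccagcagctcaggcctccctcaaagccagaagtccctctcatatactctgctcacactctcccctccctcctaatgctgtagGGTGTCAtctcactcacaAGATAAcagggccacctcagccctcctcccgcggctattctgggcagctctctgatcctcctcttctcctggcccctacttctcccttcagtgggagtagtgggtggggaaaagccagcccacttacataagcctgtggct
The Myh6 and Myh7 windows each held CATTCC on the opposite strand, read as GGAATG, with its first base 206 and 201 bases before the start. The Myh6 window also held AGGTNA on the opposite strand, read as TCACCT, and the Mybphl window held AGATAA and GGTGTCA. Of 32851 promoter windows of the same length, 12.6% held CATTCC, 37.2% AGGTNA, 9.99% AGATAA and 8.61% GGTGTNA. The window of Mybpc3 held none of these motifs, that of Myh7b held AGATAA and AGGTNA, and no member's window held TATAAA, which 12.4% of all windows did. A second RefSeq start of Myh7, nearer to the coding sequence, had no match. A match is a run of letters and says nothing of binding.

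The matrices held 67141166 to 259041468 UMIs, each UMI being 1 captured transcript 3′ end, and 80741 barcodes with at least 2000 UMIs were kept (4928 to 14675 a library, median 10268 to 24516 UMIs). No pair of libraries shared more than 264 barcodes. Cardiomyocytes were taken as barcodes with at least 1500 CPM (UMIs of a gene scaled to a common total over all genes) of Tnnt2, cardiac troponin T. They were divided by the myosin light chains: Myl2-high barcodes, the ventricular type, held at least 1000 CPM Myl2, and Myl7-only barcodes, the atrial type, under 500 CPM Myl2 and at least 1000 CPM Myl7. This gave 23962 Myl2-high and 2479 Myl7-only barcodes, and 1051 with Tnnt2 fell in neither class. Of the Myl7-only barcodes, 76 of 260 and 34 of 277 (E16.5) and 255 of 769 (P3) lay within 20% of the Myl2 ceiling. At P3 a further 436 barcodes with Tnnt2 held 500 to 1000 CPM Myl2. The part of this ceiling in the Myl7-only levels was not tested. The embryos at E8.5 and E10.5 gave only 39 to 65 barcodes a class and library, against 2286 to 5960 Myl2-high and 195 to 769 Myl7-only barcodes in the heart libraries. Doublets were kept. In the first E16.5 library the classes matched their names. There 8 atrial markers summed to 29858 CPM in Myl7-only and 2599 CPM in Myl2-high barcodes, and 6 ventricular markers to 464 and 9465 CPM. The ventricular marker Myl3 was 6.44 times as high in Myl2-high barcodes at E12.5 and 23.4 times at E16.5. The atrial marker Myl4 was 1.43 and 6.56 times as high in Myl7-only barcodes. At E12.5, 152 of 234 and 213 of 303 Myl7-only barcodes held no UMI of the atrioventricular canal markers Tbx2, Tbx3, Rspo3 and Bmp2. At E8.5 and E10.5 the markers were mixed. The ventricular markers summed to 3922 CPM in Myl2-high and 1365 CPM in Myl7-only barcodes at E8.5, and to 3489 and 4499 against 1732 and 1324 CPM at E10.5. Hey2, Irx4 and the atrial gene Nr2f1 also went with the class names in each of these libraries. The atrial markers as a whole did not separate at E8.5, where they summed to 7118 CPM in Myl7-only and 8072 CPM in Myl2-high barcodes, and at E10.5 the sums were 8597 and 8618 against 7443 and 7838 CPM, with Sln, a defining atrial gene, at 0 in 3 of the 4 sums there. At these stages the classes are named by their gate genes alone.

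The ratio of Myh6 to Myh7 separated the classes in every library, and the separation was widest at E14.5 and E16.5. Both genes were counted from 3′ ends without regard to length, and their transcripts are close in length (6113 and 6230 bases). In Myl2-high barcodes the ratio of summed UMIs was 0.540 (E8.5), 0.462 and 0.287 (E10.5), 0.156 and 0.151 (E12.5), 0.0966 and 0.101 (E14.5), 0.0922 and 0.0938 (E16.5), and 2.39 (P3). In Myl7-only barcodes it was 2.02 (E8.5), 2.18 and 2.95 (E10.5), 6.88 and 7.45 (E12.5), 19.8 and 15.4 (E14.5), 12.4 and 17.4 (E16.5), and 95.5 (P3). Myh7 thus exceeded Myh6 in all 9 Myl2-high sums from embryos and fetal hearts, Myh6 exceeded Myh7 in all 10 Myl7-only sums, and P3 was the one stage at which Myl2-high barcodes held more Myh6 than Myh7. Only 1524 of the 5960 P3 Myl2-high barcodes had a mitochondrial share between 1%, a floor chosen here, and the 20% ceiling of the study for P3, and their log2 ratio was 1.03, against 1.26 over all.

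On the log2 scale the mean ratio of Myl2-high barcodes was -1.46 ± 0.48 (SD, n = 2) (E10.5), -2.70 ± 0.03 (E12.5), -3.34 ± 0.05 (E14.5) and -3.43 ± 0.02 (E16.5), after -0.89 in the single E8.5 library, and stood at 1.26 (P3). That of Myl7-only barcodes was 1.34 ± 0.31 (E10.5), 2.84 ± 0.08 (E12.5), 4.13 ± 0.25 (E14.5) and 3.87 ± 0.35 (E16.5), with 1.02 (E8.5) and 6.58 (P3). In order of level, the E14.5 and E16.5 ratios of Myl7-only barcodes overlapped between libraries, and those of Myl2-high barcodes were close together but did not overlap. Within a library, the ratio in Myl7-only barcodes was 3.75 times that in Myl2-high barcodes (E8.5), 4.72 and 10.3 times (E10.5), 44.1 and 49.3 times (E12.5), 205 and 152 times (E14.5), 134 and 185 times (E16.5), and 39.9 times (P3). The mean difference was 5.34 log2 units (SD 2.17, n = 10), higher in Myl7-only barcodes in 10 of 10 libraries (exact two-sided sign-flip permutation test over libraries, p = 0.00195, the smallest that 10 pairs can give). Leaving out single libraries gave 5.08 to 5.73. Without Myl7-only barcodes that held a canal marker UMI the mean was 6.16, and the smallest difference in a library was 3.38, against 1.91 over all.

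**Figure D1:**
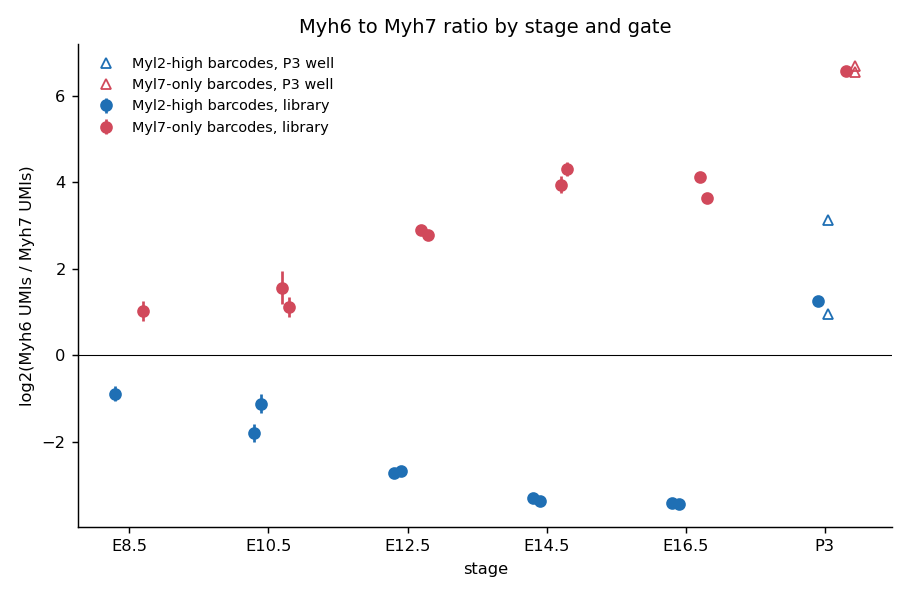
Ratio of summed Myh6 to Myh7 UMIs (log2 axis) at each stage, 1 point per library, for Myl2-high and Myl7-only barcodes. The Myl7-only points lie above the Myl2-high points at every stage, and the Myl2-high points cross equality only at P3, where the ratio was 2.39.

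These values hold limits of measurement. Myh6 and Myh7 transcripts were 88.2% identical when aligned, and 27.1% of the 91-base windows in the last 500 bases of Myh6 occurred in Myh7 and 36.1% of those of Myh7 in Myh6. Cell Ranger was run at its defaults, under which a read counts only if it maps to a single gene on that gene's strand. By gene bounds, with exons not compared, Mhrt overlaps the 3′ end of Myh7 on the opposite strand. It stayed at 14.1 CPM or less in Myl2-high barcodes to E16.5 and reached 67.7 CPM at P3, where Myl7-only barcodes held 87.1 CPM, more than their 70.2 CPM of Myh7. Free RNA can add to the low side of each ratio. Barcodes with endothelial markers, which should lack both genes, held 90.4 and 99.5 CPM Myh7 at E16.5 against 216 and 169 CPM in Myl7-only barcodes, and at P3 they held 28.1 CPM Myh7 and 74.3 CPM Myh6. With the endothelial-marker level subtracted from both genes in each library, the mean difference between the classes was 5.95 log2 units, again higher in Myl7-only barcodes in 10 of 10 libraries. The largest difference in a library was then 9.10, against 7.68 before.

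The same division was seen barcode by barcode. Among barcodes with at least 10 UMIs of both genes together, the median share of Myh6 in Myl2-high barcodes was 33.3% (E8.5), 23.1% and 23.5% (E10.5), 10.6% and 10.2% (E12.5), 5.80% and 6.02% (E14.5), 6.42% and 6.49% (E16.5), and 83.6% (P3). In Myl7-only barcodes the median was 90.0% (E8.5), 91.4% and 88.8% (E10.5), 97.6% and 96.2% (E12.5), 97.9% and 99.5% (E14.5), 95% and 96.2% (E16.5), and 99.5% (P3). The medians of the classes did not overlap at any stage. Barcodes with more than 50% Myh6 made up 21.3% of E8.5 Myl2-high barcodes (exact 95% binomial interval 10.7% to 35.7%, counting error only), 3.58% and 2.75% (E12.5), 0.513% and 0.444% (E16.5), and 89.0% (P3). Most single Myl2-high barcodes thus carried the majority transcript of their library at each stage.

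**Figure D2:**
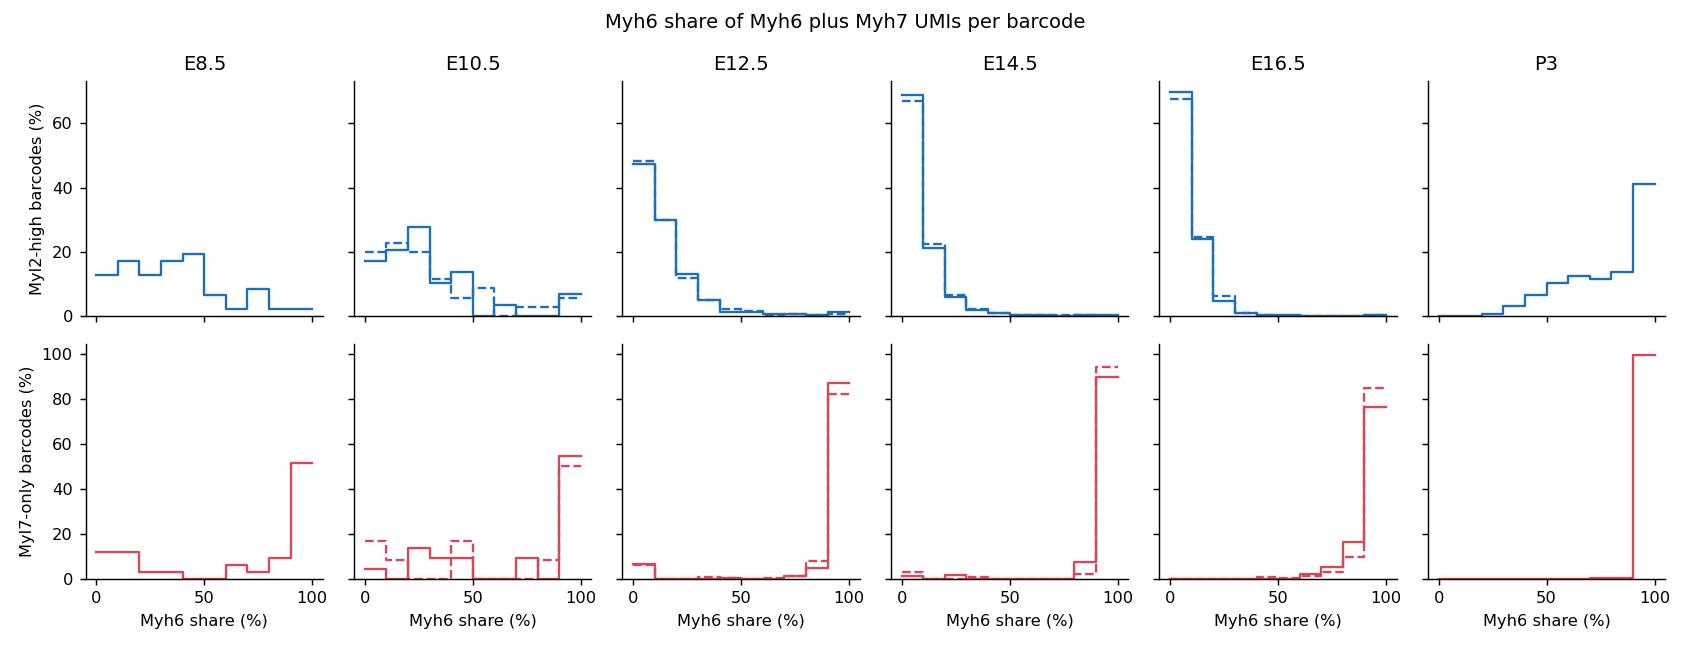
Percent of barcodes (vertical axis) in 10-point bins of the Myh6 share of Myh6 plus Myh7 UMIs (horizontal axis, percent), by stage and class, for barcodes with at least 10 UMIs of both genes; solid lines are first and dashed lines second replicates. Myl2-high barcodes gather at low shares to E16.5 and at high shares at P3, where the middle 50% lay between 63.2% and 97.1%. Myl7-only barcodes gather at the upper end from E12.5. At the earlier stages the top bin held 51.5% (E8.5) and 54.5% and 50% (E10.5) of them, with others spread over lower shares.

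The Myl2-high barcodes above 50% Myh6 were few in the fetal hearts, and they are described with no test, since the cut uses the members themselves. They numbered 53 and 55 (E12.5), 22 and 22 (E14.5), and 16 and 13 (E16.5), and 35, 71, 31, 25, 14 and 15 barcodes of these libraries lay between 40% and 60%, near the cut. At E16.5 their summed UMIs held 68.6 and 78.5 CPM Mybphl, against 1.35 and 0.876 CPM in the other Myl2-high barcodes, but the median over single barcodes was 0 on either side of the cut, so under 50% of them held any Mybphl UMI. Over single barcodes at E16.5, the median level of Sln, the atrial regulator of the calcium pump, was 96.6 and 972 CPM above the cut and 0 in both libraries below it. At E12.5 and E14.5 the Sln median was 0 on either side of the cut in all 4 libraries. In summed UMIs Sln stood at 126 and 65.5 CPM above and 7.41 and 7.58 CPM below the cut at E12.5. At E14.5 these sums were 591 and 170 against 17.5 and 8.37 CPM. The E16.5 median of Hey2, a ventricular repressor, was 0 in both libraries above the cut and 63.5 and 53.7 CPM below it. The E16.5 medians of the atrial genes Nr2f1 and Nr2f2 were 0 on either side in both libraries. In summed UMIs Nr2f1 stood at 30.8 and 54.4 CPM above and 1.15 and 1.37 CPM below the cut. The sums of Nr2f2 were 41.1 and 24.2 against 1.78 and 2.69 CPM. The E16.5 median of the ventricular gene Irx4 was 32.9 above and 36.2 CPM below the cut in the first library and 0 on either side in the second. In summed UMIs the canal genes Rspo3, Bmp2 and Tbx3 stood higher above the cut in every library of these stages. At E16.5 Rspo3 stood at 332 and 42.3 against 4.03 and 3.46 CPM and Bmp2 at 113 and 90.6 against 1.13 and 0.988 CPM. Tbx3 stood at 37.7 and 36.2 against 1.65 and 1.62 CPM. Their medians were 0 on either side, except Rspo3 above the cut in the first E14.5 library (24.3 CPM). The part of doublets in the barcodes above the cut was not tested.

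Myl7-only barcodes with no more than 50% Myh6 were a second minority, also described with no test. The cut uses Myh6 and Myh7 themselves, so high Myh7 and low Myh6 in this minority follow in part from the cut. Of the Myl7-only barcodes with enough UMIs, they were 10 of 33 (E8.5) and 8 of 22 and 5 of 12 (E10.5). The E8.5 and E10.5 medians of this class given above thus rest on 12 to 33 barcodes. In the hearts they were 13 of 184 and 16 of 210 (E12.5), 5 of 174 and 4 of 104 (E14.5), 0 of 191 and 2 of 221 (E16.5), and none of 765 (P3). At E12.5 these 13 and 16 barcodes held 3373 and 2422 CPM Myh7, beside 2715 and 2824 CPM in the Myl2-high barcodes of the same libraries, and the Myl7-only barcodes above 50% Myh6 held 61.0 and 82.9 CPM. They held 185 and 232 CPM Myh6, against 1997 and 1980 CPM in the others. The median of Nr2f1, an atrial transcription factor, over single barcodes at E12.5 was 0 in both libraries in this minority and 243 and 285 CPM in the others, and that of the ventricular genes Hey2 and Irx4 was 0 on either side of the cut. Genes of the atrioventricular canal differed in direction. The median of Rspo3 at E10.5 in this minority was 86.8 and 791 CPM and that of Bmp2 80.7 and 184 CPM, against 0 in the others, while at E12.5 the Rspo3 median was 0 and 37.6 CPM, that of Bmp2 0 in both libraries, and both were 0 in the others. The median of Tbx3 was 0 on either side at every stage. In summed UMIs at E12.5 the minority held 52.4 and 272 CPM Rspo3 against 48.7 and 29.5 CPM in the others, but 24.5 and 5.72 CPM Bmp2 against 38.6 and 31.0 CPM, and 3.49 and 0 CPM Tbx3 against 16.6 and 19.7 CPM. This minority held 73.3% of all Myh7 UMIs of the Myl7-only barcodes in the E8.5 library, 80% and 75% (E10.5), 78.5% and 67.0% (E12.5), 40.5% and 58.7% (E14.5), and 5.38% in the second E16.5 library.

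The P3 barcodes carry suffix 1 or 2, called wells here, though no label says what the suffix marks. The wells differed in Myh7 and not to the same degree in Myh6. Among the stages, the study reported significant batch differences for P3 alone. The labels do not tie a well to a P3 sample, so P3 counts as 1 matrix and the wells are given side by side with no test. In Myl2-high barcodes, Myh7 stood at 2826 CPM in well 1 (3580 barcodes) and 577 CPM in well 2 (2380 barcodes), Myh6 at 5448 and 5004 CPM, and the ratio at 1.93 and 8.68. The median share of Myh6 per barcode was 69.7% and 96.4%, and 82.6% and 98.5% of barcodes lay above 50% Myh6. In Myl7-only barcodes the ratio was 92.9 and 103, with Myh7 at 77.5 and 54.8 CPM. Mybpc3 differed little in Myl2-high barcodes, at 1021 and 1094 CPM, as did Mybphl at 4.76 and 4.35 CPM, while Myh7b stood at 17.0 and 36.0 CPM. Median depth was 19196 and 10165 UMIs per Myl2-high barcode and the median mitochondrial share 23.1% and 23.2%; the part of depth in the difference was not tested.

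Myh7, the β chain, was the most abundant member in Myl2-high barcodes to E16.5. Its level there was 591 CPM (E8.5), 877 and 1317 CPM (E10.5), 2715 and 2824 CPM (E12.5), 2740 and 2916 CPM (E14.5), 4969 and 5080 CPM (E16.5) and 2227 CPM (P3). The Myl7-only level was 169 CPM (E8.5), 286 and 168 CPM (E10.5), 255 and 228 CPM (E12.5), 73.9 and 97.5 CPM (E14.5), 216 and 169 CPM (E16.5) and 70.2 CPM (P3). The E16.5 libraries were the highest of all and the classes did not overlap at any stage, while the E12.5 and E14.5 levels of Myl2-high barcodes overlapped. A level over summed barcodes cannot tell fewer cells with a transcript from less transcript per cell.

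Myh6, the α chain, stood highest in both classes at P3, a single matrix that entered no stage test. Its level in Myl2-high barcodes was 319 CPM (E8.5), 405 and 378 CPM (E10.5), 424 and 426 CPM (E12.5), 265 and 296 CPM (E14.5), 458 and 476 CPM (E16.5) and 5330 CPM (P3). Among Myl7-only barcodes it was 342 CPM (E8.5), 622 and 495 CPM (E10.5), 1753 and 1698 CPM (E12.5), 1459 and 1503 CPM (E14.5), 2665 and 2936 CPM (E16.5) and 6699 CPM (P3). At E8.5 the Poisson intervals of the classes overlapped (290 to 351 and 313 to 374 CPM), and from E10.5 the Myl7-only level was the higher in each library. The E14.5 libraries were the lowest of the Myl2-high series, and the E12.5 and E14.5 Myl7-only levels were neighbours in the order without overlap.

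Mybphl, the myosin-binding protein H-like gene, started at similar levels in both classes and parted from E12.5. Its level in Myl2-high barcodes was 42.7 CPM (E8.5), 20.4 and 44.1 CPM (E10.5), 20.8 and 19.8 CPM (E12.5), 5.82 and 4.69 CPM (E14.5), 2.31 and 1.62 CPM (E16.5) and 4.65 CPM (P3). In Myl7-only barcodes it was 36.2 CPM (E8.5), 53.3 and 39.8 CPM (E10.5), 152 and 144 CPM (E12.5), 177 and 198 CPM (E14.5), 214 and 233 CPM (E16.5) and 426 CPM (P3). The E10.5 libraries of the classes overlapped, and those from E12.5 did not. At E16.5 a UMI of Mybphl was found in 83.5% and 84.5% of Myl7-only barcodes (median depth 18654 and 13446 UMIs) and in 2.42% and 1.41% of Myl2-high barcodes (19217 and 13664 UMIs). Endothelial-marker barcodes gave 0.473% and 1.13% (12866 and 11373 UMIs). With each barcode thinned to 2000 UMIs these shares were 33.8% and 35.7%, 0.731% and 0.600%, and 0.236% and 0.282%. The Myl2-high share lay above the endothelial-marker share in both libraries, with exact 95% intervals that did not overlap in the first (1.94% to 2.98% and 0.0573% to 1.70%) and did in the second, all before thinning.

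Mybpc3, cardiac myosin-binding protein C, was present in both classes and stood higher in the hearts than in the embryos. Its level in Myl2-high barcodes was 161 CPM (E8.5), 260 and 254 CPM (E10.5), 494 and 555 CPM (E12.5), 551 and 591 CPM (E14.5), 650 and 668 CPM (E16.5) and 1040 CPM (P3). The Myl7-only level was 97.3 CPM (E8.5), 133 and 130 CPM (E10.5), 356 and 344 CPM (E12.5), 298 and 309 CPM (E14.5), 351 and 394 CPM (E16.5) and 555 CPM (P3). The Myl2-high level was the higher in every library, and the E12.5 and E14.5 libraries overlapped in Myl2-high barcodes, as did those of E12.5 and E16.5 in Myl7-only barcodes.

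Myh7b was a low-level member in both classes. Its level in Myl2-high barcodes was 8.83 CPM (E8.5), 17.3 and 12.2 CPM (E10.5), 8.61 and 11.9 CPM (E12.5), 23.7 and 22.3 CPM (E14.5), 19.7 and 22.2 CPM (E16.5) and 22.1 CPM (P3). In Myl7-only barcodes it ran from 2.09 to 14.8 CPM, and the 2 E10.5 sums rested on 6 UMIs and 1 UMI. Within each library it was higher in Myl2-high barcodes, but at E10.5 the Poisson intervals were wide (8.61 to 30.9 and 2.80 to 16.6 CPM in the first library). At E16.5 a UMI was found in 29.2% and 24.4% of Myl2-high and 7.31% and 6.14% of Myl7-only barcodes, against 2.60% and 2.82% of endothelial-marker barcodes. Thinned to 2000 UMIs, the Myl2-high shares were 4.02% and 3.81% and the Myl7-only shares 0.385% and 0.361%.

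**Figure D3:**
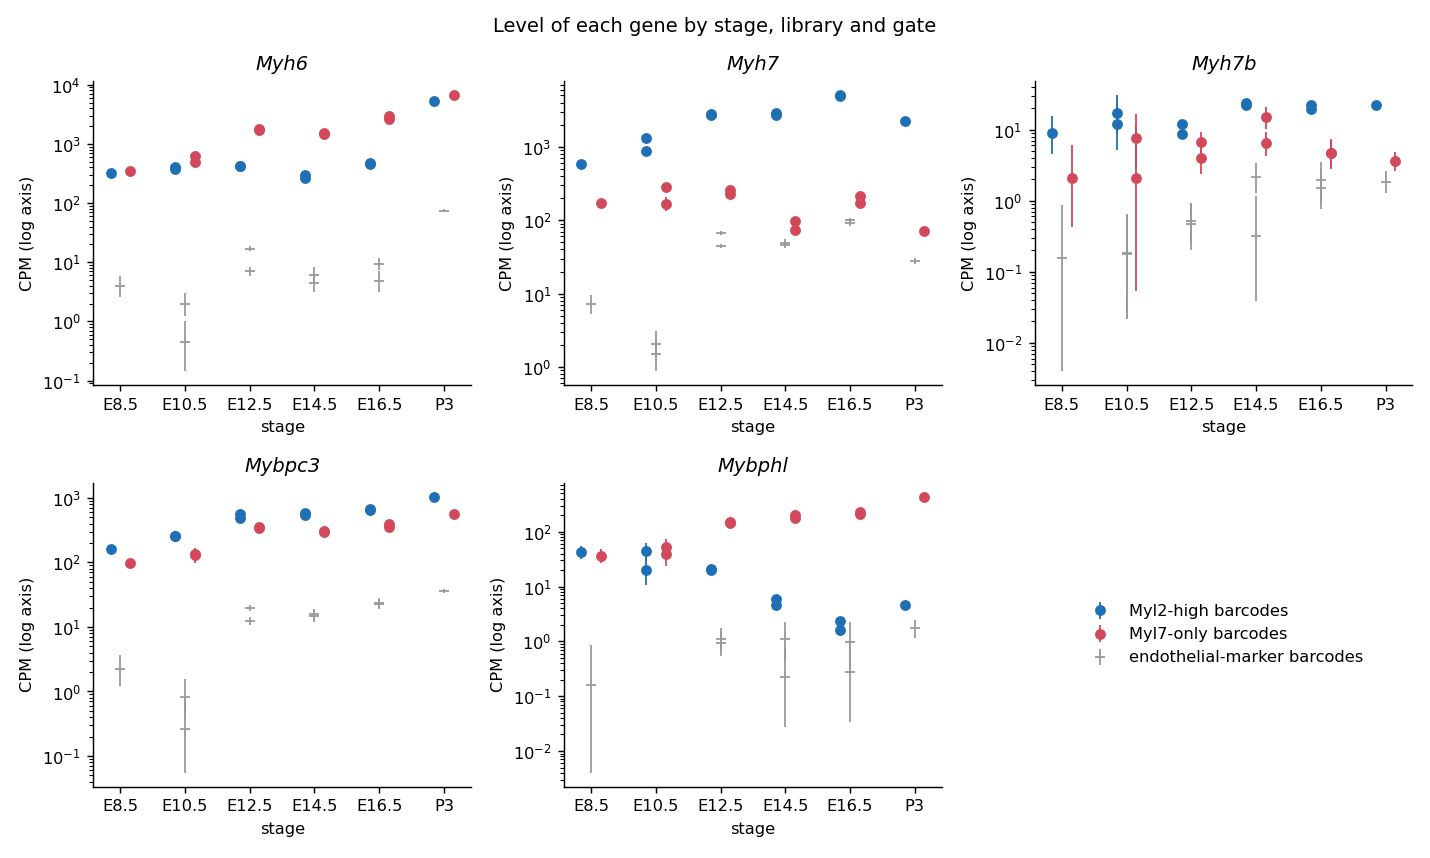
Level of each member (CPM, log axis) by stage in Myl2-high and Myl7-only barcodes, 1 point per library with its exact 95% Poisson interval (counting error only), and in endothelial-marker barcodes in grey as the level of free RNA. Myh7 and Myh7b lie higher in Myl2-high, Myh6 and Mybphl higher in Myl7-only barcodes from E12.5, and Mybpc3 lies higher in Myl2-high barcodes by a smaller step (0.72 to 0.98 log2 units where tested).

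The difference between the classes was then tested across all genes at each stage with replicates. Counts were summed per library and class and fitted with edgeR's quasi-likelihood test with the library as a block, and p-values were adjusted by Benjamini-Hochberg over the 11900 genes tested, with a call at an adjusted p under 0.05. At E10.5, 3 of 5 members were called, where 1.55% of all genes were. Myh7 was 2.21 ± 0.20 log2 units (SE) higher in Myl2-high barcodes (adjusted p = 1.40e-06), Mybpc3 0.97 ± 0.13 higher (adjusted p = 0.000221) and Myh6 differed by -0.51 ± 0.10 (adjusted p = 0.00782), each in the same direction in 2 of 2 libraries. The Myh7 difference was 3.05 without the first and 1.59 without the second E10.5 library, 2.80 with the mitochondrial limits and 3.72 without Myl7-only barcodes that held a UMI of a canal marker (Tbx2, Tbx3, Rspo3 or Bmp2). Myh7b (1.49 ± 0.73, adjusted p = 0.470) and Mybphl (-0.60 ± 0.40, adjusted p = 0.654) did not pass. The call of Myh6 was lost with thinned barcodes (-0.33), as was that of Mybpc3 (0.25). Myh6 also lost its call without the first E10.5 library (-0.32) and with the mitochondrial limits applied (-0.05). These limits left 12 Myl2-high barcodes in the first E10.5 library, under the 20 needed for a sum. The E10.5 class differences with these limits therefore rest on the second library alone.

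All 5 members were called at E12.5, E14.5 and E16.5, where 36.1%, 29.8% and 33% of all genes were. Myh7 was 3.67 ± 0.17, 5.13 ± 0.19 and 4.83 ± 0.18 log2 units higher in Myl2-high barcodes, 28.5-fold at E16.5 (adjusted p = 1.30e-13). Mybphl differed by -2.72 ± 0.10, -5.05 ± 0.12 and -6.67 ± 0.12, which is 101-fold higher in Myl7-only barcodes at E16.5 (adjusted p = 6.07e-18). Myh6 differed by -1.88 ± 0.08, -2.34 ± 0.08 and -2.46 ± 0.08 (5.51-fold higher in Myl7-only barcodes at E16.5, adjusted p = 1.49e-14). Mybpc3 was 0.72 ± 0.08, 0.98 ± 0.08 and 0.95 ± 0.08 higher in Myl2-high barcodes (1.93-fold at E16.5, adjusted p = 1.09e-08), and Myh7b 1.08 ± 0.23, 1.35 ± 0.21 and 2.27 ± 0.23 higher (adjusted p = 2.48e-07 at E16.5). Each difference had the same sign in both libraries of its stage. Of these calls, 2 were lost in some alternative: Myh7b was not called at E12.5 with thinned barcodes, nor at E14.5 without the first E14.5 library (0.66, adjusted p = 0.078, against 1.96 without the second). The Myh7 difference at E12.5 was 3.04 with the mitochondrial limits and 4.41 without canal markers, and that of Mybphl at E16.5 was -5.64 with thinned barcodes.

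**Figure D4:**
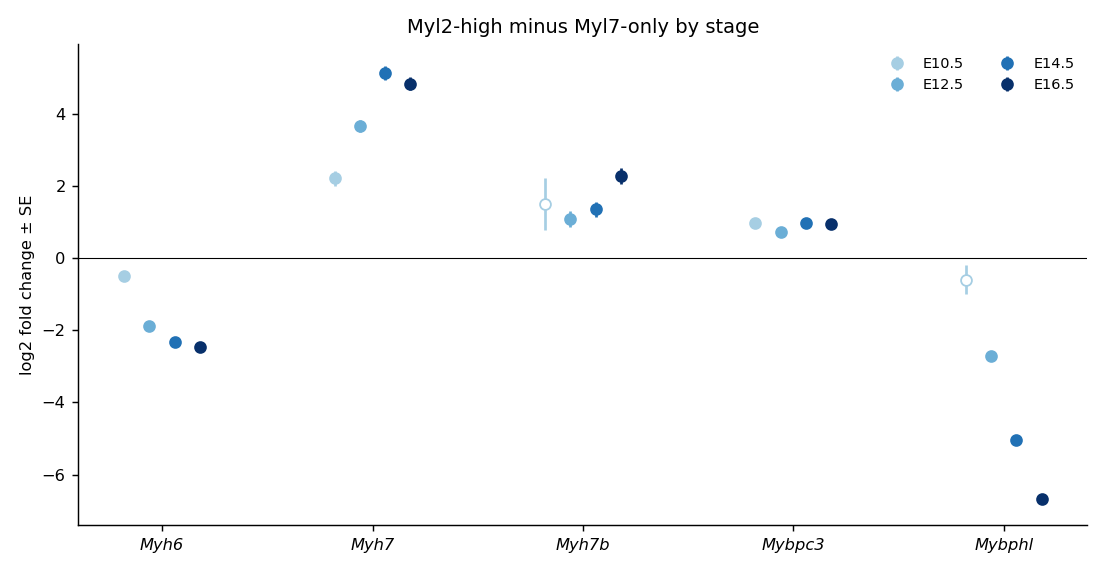
Difference between classes (Myl2-high minus Myl7-only, log2, with SE) of each member at E10.5, E12.5, E14.5 and E16.5 from edgeR; filled points have an adjusted p under 0.05 and open points do not. The differences of Myh7, Myh6 and Mybphl are larger at E14.5 and E16.5 than at E10.5, and that of Mybpc3 stays between 0.72 and 0.98.

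The change of the class difference from E12.5 to E16.5 was tested by the interaction term of the same model. Of the members, 4 of 5 were called, where 12.9% of all genes were. The Mybphl difference widened toward Myl7-only barcodes (-3.95 ± 0.16, adjusted p = 5.86e-12), as did that of Myh6 (-0.58 ± 0.11, adjusted p = 0.00116). The Myh7 difference widened toward Myl2-high barcodes (1.17 ± 0.23, adjusted p = 0.00168), and so did that of Myh7b (1.19 ± 0.38, adjusted p = 0.0444). For Mybpc3 the change was 0.22 ± 0.11 (adjusted p = 0.199). Without Myl7-only barcodes that held canal markers, the Myh7 change was 0.36 (adjusted p = 0.398), and with the mitochondrial limits it was 1.77. The Mybphl change was -3.12 with thinned barcodes. The Myh7b call was lost under 9 of 19 alternatives.

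Between successive stages, Myh7 and Mybpc3 rose in Myl2-high barcodes from E10.5 to E12.5, Mybphl and Myh6 fell from E12.5 to E14.5, and Myh6, Myh7 and Mybpc3 rose from E14.5 to E16.5. From E10.5 to E12.5, 2 of 5 members were called, where 13.2% of 14069 genes were: Myh7 rose by 1.51 ± 0.15 (adjusted p = 4.74e-07) and Mybpc3 by 1.21 ± 0.12 (adjusted p = 3.08e-07). Myh6 differed by 0.30 ± 0.11 (adjusted p = 0.0730), Myh7b by -0.32 ± 0.40 and Mybphl by -0.49 ± 0.31, none of which passed. This step also holds the tissue taken, embryos at E10.5 and hearts at E12.5. From E12.5 to E14.5, 3 of 5 were called, where 35.9% of genes were: Mybphl fell (-1.97 ± 0.12, adjusted p = 9.38e-11), Myh6 fell (-0.65 ± 0.09, adjusted p = 1.29e-05) and Myh7b rose (1.12 ± 0.10, adjusted p = 2.11e-08). Myh7 (-0.01 ± 0.14) and Mybpc3 (0.08 ± 0.09) did not pass. From E14.5 to E16.5, 4 of 5 were called, where 39.4% of genes were: Myh7 rose by 1.00 ± 0.15 (adjusted p = 1.15e-05), Myh6 by 0.91 ± 0.09 (adjusted p = 9.02e-08) and Mybpc3 by 0.38 ± 0.09 (adjusted p = 0.00329), Mybphl fell again (-1.23 ± 0.17, adjusted p = 4.48e-06), and Myh7b was at 0.02 ± 0.09. This call of Mybphl was lost with thinned barcodes (-0.13, adjusted p = 0.796), and that of Mybpc3 without the first E14.5 library (0.32, adjusted p = 0.118). Myh6 and Myh7 both rose in this step, so the ratio of the sums moved only from 0.0966 and 0.101 to 0.0922 and 0.0938.

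In Myl7-only barcodes, Myh6, Mybphl and Mybpc3 rose from E10.5 to E12.5 and again from E14.5 to E16.5. The first of these steps also holds the change from embryos to hearts. In the step from E10.5 to E12.5 3 of 5 members were called, where 20% of 11325 genes were: Myh6 (1.57 ± 0.11, adjusted p = 5.11e-10), Mybphl (1.57 ± 0.17, adjusted p = 4.07e-07) and Mybpc3 (1.36 ± 0.13, adjusted p = 4.90e-08). Myh7 stood at -0.02 ± 0.17 and Myh7b at -0.09 ± 0.69. The Myh7 value changed sign in 8 of 17 alternatives and was 0.75 without barcodes holding canal markers (adjusted p = 0.047, edgeR). The call of Mybpc3 was lost with thinned barcodes (0.55, adjusted p = 0.183). Among Myl7-only barcodes above 50% Myh6, the Myh6 level was 930 and 1063 CPM (E10.5) and 1997 and 1980 CPM (E12.5). The part of the mix of barcodes in the rises of this step was not tested. From E12.5 to E14.5, 2 of 5 were called, where 5.7% of genes were: Myh7 fell (-1.49 ± 0.16, adjusted p = 1.18e-06) and Mybphl rose by 0.37 ± 0.10 (adjusted p = 0.0268). The E12.5 Myh7 UMIs lay mostly in the 13 and 16 barcodes with no more than 50% Myh6 (78.5% and 67.0%), and the barcodes above 50% Myh6 held 61.0 and 82.9 CPM then, against 50.4 and 43.0 CPM at E14.5. This cut uses Myh7 itself, and the part of the mix of barcodes in the Myh7 fall was not tested. With the mitochondrial limits the fall was -2.26. From E14.5 to E16.5, 4 of 5 were called, where 10.7% of genes were: Myh7 (1.35 ± 0.16, adjusted p = 3.07e-06), Myh6 (1.07 ± 0.10, adjusted p = 1.21e-07), Mybpc3 (0.45 ± 0.10, adjusted p = 0.00403) and Mybphl (0.41 ± 0.10, adjusted p = 0.00631). The Myh7 rise went with a rise of Myh7 in endothelial-marker barcodes from 46.5 and 49.6 to 90.4 and 99.5 CPM, and the part of free RNA in it was not tested. The small Mybphl call from E12.5 to E14.5 was lost under 10 of 18 alternatives, including without any 1 of the 4 libraries of these stages. That from E14.5 to E16.5 was lost under 5 of 18, including without the first E14.5 library (0.33) or the second E16.5 library (0.37), and the Mybpc3 call of that step was lost without either of the same libraries (0.43 and 0.39).

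**Figure D5:**
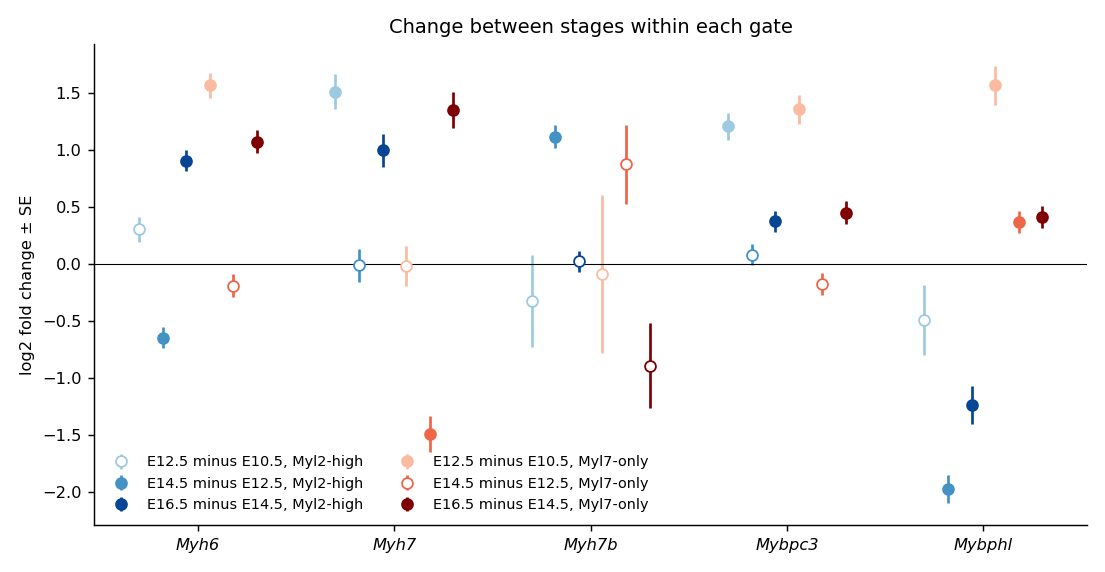
Change of each member between successive stages (log2, with SE, edgeR) in Myl2-high and Myl7-only barcodes; filled points have an adjusted p under 0.05 and open points do not. Mybphl falls in Myl2-high and rises in Myl7-only barcodes after E12.5, and Myh6 and Myh7 both rise from E14.5 to E16.5 in each class.

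Within the Myl2-high barcodes, those high in Nppa, the natriuretic peptide of trabecular myocardium, held slightly more Myh6 from E12.5 to E16.5. Nppa-high barcodes (at least 1000 CPM) were compared with Nppa-low barcodes (under 200 CPM) over the 6 libraries from E12.5 to E16.5, with the library as a block. Of the members, 4 of 5 were called, where 28.9% of 13249 genes were. Mybphl was 1.31 ± 0.27 higher in Nppa-high barcodes (adjusted p = 0.00394), Myh6 0.42 ± 0.04 higher (adjusted p = 3.84e-05) and Mybpc3 0.20 ± 0.07 higher (adjusted p = 0.0416), Myh7b differed by -0.22 ± 0.07 (adjusted p = 0.0403), and Myh7 by 0.12 ± 0.05 (adjusted p = 0.0841). The Mybpc3 call was lost under 6 and the Myh7b call under 10 of 16 alternatives. At E16.5 the few Myl2-high barcodes above 50% Myh6 held 6547 and 4523 CPM Nppa in summed UMIs, against 642 and 684 CPM in the others. In the second E14.5 library these values were 506 and 626 CPM. The part of atrial-type barcodes or doublets in the Nppa contrast was not tested. The log2 ratio of Myh6 to Myh7 was higher in Nppa-high barcodes by 0.24 and 0.10 (E12.5), 0.32 and 0.04 (E14.5) and 0.66 and 0.47 (E16.5). At E8.5 it lay the other way, with ratios of 0.489 in only 21 Nppa-high and 0.663 in 34 Nppa-low barcodes of 1 library. The E10.5 libraries held 5 and 6 Nppa-high barcodes, too few for a sum. It also lay the other way at P3, with ratios of 1.52 in Nppa-high and 3.31 in Nppa-low barcodes. Within wells these ratios were 1.42 and 2.40 in well 1 and 5.29 and 9.08 in well 2. Both P3 wells thus had the lower ratio in Nppa-high barcodes.

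Other genes of the sarcomere differed between the classes in both directions. Of 11 light chains and thick filament partners at E16.5, 1 was higher in Myl2-high barcodes, 6 were lower and 4 were not called, where 33% of all genes were called, with a median of -0.19 against 0.01 over all genes. Myl3, the ventricular essential light chain, was 4.55 log2 units higher in Myl2-high barcodes, while Myl1 (-5.11) and Myl4 (-2.71), the atrial essential light chain, were lower, as was the M-band gene Myom2 (-1.74). Of 10 thin filament genes, 3 were higher, 3 lower and 4 not called (median -0.01), against the same 33%. The slow troponin I gene Tnni1 was higher (0.67), and Tnnt1 (-2.43), Tpm2 (-1.41) and Acta1 (-1.10) were lower. From E14.5 to E16.5 in Myl2-high barcodes, 7 of the 11 thick filament partners rose, 1 fell and 3 were not called, where 39.4% of all genes were called (median 0.41 against -0.02 over all genes), among them the giant spring protein Ttn (0.78), and Myl4 fell (-1.14). In Myl7-only barcodes 6 rose, none fell and 5 were not called in this step, where 10.7% of all genes were called (median 0.48 against 0.01).

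Of 10 further myosin heavy chains, only 4 passed the filter on low counts, and at E16.5 Myh10, a non-muscle chain, was 0.25 higher in Myl2-high barcodes, Myh8 (-5.19) and Myh13 (-5.03) were lower, and Myh9 (0.52) was not called. Myh8, the perinatal skeletal chain, stood at 28.0 and 27.8 CPM in Myl7-only barcodes of E16.5 and 0.637 and 0.777 CPM in Myl2-high barcodes. The summed skeletal muscle precursor markers stood at 0.222 and 1.56 CPM in those Myl7-only barcodes. Myh8 reads can match near-identical skeletal chains, and its E14.5 difference (-4.47) turned to 1.32 with thinned barcodes. Of Mybpc1, Mybpc2 and Mybph, only Mybpc1 was tested between classes, and it stood at 1.23 and 0.928 CPM in Myl2-high barcodes and was listed at 0 in Myl7-only barcodes at E16.5.

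Of 9 genes that fold or turn over myosin, 5 were higher in Myl2-high barcodes at E16.5, 3 were lower and 1 was not called (median 0.31 against 0.01), where 33% of all genes were called. The lysine methyltransferase Smyd2 (2.94), the chaperone Hsp90aa1 (0.76) and the myosin chaperone Unc45b (0.45) were higher, and the ring finger gene Trim54 (-4.09) and the ubiquitin ligase subunit Fbxo32 (-0.96) were lower. From E12.5 to E16.5 the difference of 5 moved toward Myl2-high and that of 2 toward Myl7-only barcodes (median 0.62 against 0.03), where 12.9% of all genes were called. Of these 7, Smyd2 (0.95 to 2.94) and Trim54 (-1.43 to -4.09) moved further from 0, Fbxo32 moved nearer to it (-1.72 to -0.96), and Unc45b (-0.24 to 0.45) and Trim63 (-0.31 to 0.31) changed sign, called at both stages. Trim55 went from -0.19, not called, to 0.44, and Hspb7 from 0.42 to -0.14, not called.

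Transcription factors with known actions on cardiac myosin genes were the last list, and 13 of its 14 genes were tested between classes. At E16.5, 4 were higher in Myl2-high barcodes, 6 lower and 3 not called (median -0.14 against 0.01), where 33% of all genes were called. Irx4 (6.59) and Hey2 (6.47), regulators of ventricular identity, were higher, and Nr2f2 (-4.82), which maintains atrial identity, and Tbx5 (-2.98) were lower. The thyroid hormone receptor gene Thra did not pass at E16.5 (-0.14), but it rose in Myl2-high barcodes from E14.5 to E16.5 (0.43). Thrb was not tested and stood at 1.13 CPM in Myl2-high and 2.59 CPM in Myl7-only barcodes at P3. From E12.5 to E16.5 the difference of Hey2 widened by 2.08 and that of Tbx5 changed by -1.27.

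The genes with the course most like each member were ranked by Pearson's r of log2(CPM + 1) over the 20 sums of a class and library, among 6867 genes with at least 10 CPM in at least 10 sums. The sums share libraries and stages, so r is a description. For Myh6 these were Herpud1 (0.94), Nt5c3 (0.92) and Atp2a2 (0.92), the last being the calcium pump of the sarcoplasmic reticulum. For Myh7 they were Acsl3 (0.95), Myl3 (0.94) and Hey2 (0.93), and for Myh7b Hey2 (0.86), Tmem164 (0.85) and Lclat1 (0.84). For Mybpc3 they included Ezr (0.98) and Actn2 (0.97), the Z-disc α-actinin, and for Mybphl they were Slc39a8 (0.97), Tmem163 (0.96) and Tbx5 (0.95). Hey2 stood on the lists of both Myh7 and Myh7b, and no other gene was named for more than 1 member.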

How the data were processed

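The files hold UMI counts per gene and barcode, deposited by the authors as 10 matrices in whole numbers with no normalization and aligned to mm10. The notes of the submitters name Cell Ranger 2.1.1 and Seurat 3.1.1, and the file headers name Cell Ranger 3.1.0 (3.0.0 for P3). The labels give trypsin digestion and 3′ v2 chemistry, while the study's methods give collagenase II and v3 chemistry. The P3 matrix lists 10964 barcodes and each of the others 737280. The study's methods state default parameters, under which Cell Ranger counts reads that map to a single gene on its own strand. How doublets were handled is not given in the sources used here.

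Barcodes with at least 2000 UMIs were divided by the gates stated above, and UMIs were summed per library and class where at least 20 barcodes were present. CPM are UMIs scaled to a common total per sum. Intervals are exact Poisson and Clopper-Pearson intervals at 95% and cover counting error only. Stage, class and Nppa contrasts were fitted with edgeR 4.0.16 in R 4.3.3 (TMM normalization, filterByExpr, quasi-likelihood test, Benjamini-Hochberg adjusted p under 0.05), with the library as a block for contrasts within libraries, since both sums come from the same library. The SE of an edgeR log2 change was taken as its absolute value divided by the square root of its quasi-likelihood F statistic. The E8.5 and P3 matrices entered no stage test. The ratio of Myh6 to Myh7 was compared by an exact permutation test over libraries in Python 3.11.15 with scipy 1.17.1. DESeq2 1.42.0, other floors, filters, size factors, thinning to 2000 UMIs and each library left out were alternatives. The fits were tested on simulated counts. The text names the 5 members, gene lists by their counts with examples, and for each member the 3 genes with the highest r, except that 1 of those for Mybpc3 is not reported here. Members, gates and lists were chosen with earlier results of these data known.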

Additional observations from a re-analysis of the deposited data

Results flagged for a closer look

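For 4 of 5 members the difference between the classes was not the same at E12.5 and E16.5 by the interaction term of the edgeR fit (Myl2-high minus Myl7-only, log2, difference at E16.5 minus difference at E12.5). Of all genes tested, 12.9% were called in this contrast. The change was -3.95 for Mybphl (SE 0.16, adjusted p = 5.86e-12), -0.58 for Myh6 (SE 0.11, adjusted p = 0.00116), 1.17 for Myh7 (SE 0.23, adjusted p = 0.00168) and 1.19 for Myh7b (SE 0.38, adjusted p = 0.0444). The calls of Mybphl and Myh6 held under every alternative run. That of Myh7 was lost without Myl7-only barcodes holding canal markers (0.36, adjusted p = 0.398) and in DESeq2 (1.17, adjusted p = 0.147), and that of Myh7b was lost under 9 of 19 alternatives.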

How the results depend on the processing

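The higher Myh6 to Myh7 ratio of Myl7-only barcodes kept its direction and its side of the threshold in all 20 alternatives. Those that only left libraries out could not change either, since all 10 differences had the same sign. The Tnnt2 floor of 3000 CPM and the mitochondrial limits left 8 and 9 libraries. Of 44 calls of members, 30 held in every alternative run and 14 were lost in some, and no called member changed sign.

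Counts of genes called moved by over 1.5 times as follows, and the cause was not tested. With barcodes thinned to 2000 UMIs, the class contrasts gave 36 (from 184), 1137 (from 4294), 896 (from 3551) and 1104 genes (from 3924) at E10.5, E12.5, E14.5 and E16.5, their change 419 (from 1530), the successive Myl2-high stage steps 631 (from 1863), 2915 (from 5047) and 2622 (from 5538), the Myl7-only steps 396 (from 2270), 78 (from 646) and 274 (from 1210), and the Nppa contrast 1209 (from 3826). The mitochondrial limits gave 837 for the first Myl2-high step and 2022 for Nppa. DESeq2 gave 244 and 606 for the later Myl7-only steps, and no filter on low counts gave 302 for the class contrast at E10.5. Leaving out single libraries gave 168 to 310, 2378 to 4931, 1645 to 4202 and 2410 to 4598 for the class contrasts, 785 to 2163 for their change, 1098 to 1870, 2771 to 5493 and 3355 to 6159 for the Myl2-high steps, and 1114 to 2224, 165 to 675 and 456 to 1288 for the Myl7-only steps.

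The values that turned sign were not called in the text, apart from Myh8 at E14.5, which went from -4.47 to 1.32 when thinned. Mybphl between classes at E10.5 gave 0.45 with the mitochondrial limits and -1.41 to 0.22 without single libraries. In Myl2-high barcodes from E10.5 to E12.5, Myh7b gave 0.14 with the mitochondrial limits and 0.21 thinned, and Mybphl 0.080 thinned and -0.98 to 0.21 without single libraries. Myh7 from E12.5 to E14.5 gave 0.011 with the mitochondrial limits, 0.12 thinned and -0.0565 to 0.034 without single libraries, and Myh7b from E14.5 to E16.5 gave -0.030 to 0.11 without single libraries. In Myl7-only barcodes from E10.5 to E12.5, Myh7b gave -0.54 to 1.32 without single libraries, and Myh7 gave 0.39 with the mitochondrial limits, 0.033 without barcodes of other classes' markers, 0.75 without canal markers (adjusted p = 0.047, edgeR), 0.032 with no filter and -0.29 to 0.51 without single libraries. Myh6 from E12.5 to E14.5 gave 0.10 with the mitochondrial limits.

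Without the replicate block, the change of Myh7b (1.20, adjusted p = 0.072) and its Nppa difference (-0.23, adjusted p = 0.064) lost their calls in edgeR. Stage contrasts could not be paired, since stages share no library, while class and Nppa contrasts and the ratio test were paired within libraries. A Tnnt2 floor of 3000 CPM left too few barcodes at E10.5 for a contrast there. The mitochondrial limits left 12 Myl2-high barcodes in the first E10.5 library, under the 20 needed for a sum. With these limits, the E10.5 class contrast and the first Myl2-high step therefore rest on the second E10.5 library alone. Depth limits Myh7b in Myl7-only barcodes, where each sum held 1 to 43 UMIs.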

Other observations

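Mhrt, the noncoding RNA antisense to the 3′ end of Myh7, was a low-level transcript in the fetal heart and stood higher at P3 in both classes. Its level in Myl2-high barcodes was 6.63 CPM at E8.5, 14.1 and 6.08 CPM at E10.5, 2.07 and 3.55 CPM at E12.5, 9.16 and 7.95 CPM at E14.5, 6.59 and 7.86 CPM at E16.5 and 67.7 CPM at P3. In Myl7-only barcodes it ran from 0.889 to 15.2 CPM before P3 and stood at 87.1 CPM at P3. The P3 wells gave 72.1 and 55.7 CPM in Myl2-high barcodes. P3 is a single matrix, so the step was not tested.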
